A study of Mus musculus with 23 samples.

Results

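Autophagy and lysosome genes were followed in cortex and lumbar spinal cord, from mice with or without a human C9orf72 transgene. The set was a fixed list of 42 genes, of which 23 encode autophagy machinery, 14 lysosomal proteins (8 enzymes, 2 lumenal cofactors and 4 membrane proteins), 3 Rab GTPases and 2 transcription factors. A gene was used in a tissue when its mean level was at least 0.5 RPKM (read count scaled by gene length and by the alignments of the library). All 42 were, in both tissues, among the 13865 genes at that level of 20016 listed in cortex and the 13839 of 19890 listed in spinal cord.

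The mice were 6 months old and C57BL/6. F112 mice carried an expanded human C9orf72 transgene, F08 mice an unexpanded one, and NTg mice no transgene. Cortex libraries numbered 3 F112, 4 F08 and 4 NTg, and spinal cord libraries 4 of each, 23 in all from 12 mice. Each transgene was represented by 1 line, so that line and repeat cannot be told apart. The labels do not give sex. They do not say either which cells express the transgenes.

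In macroautophagy a double membrane closes around cargo and fuses with the lysosome, where acid hydrolases break the cargo down. The ULK kinase complex starts the process, a lipid kinase complex built on Beclin 1 marks the site, and ubiquitin-like conjugation systems attach proteins of the ATG8 family to the growing membrane. TFEB and TFE3 are transcription factors that bind E-box sequences upstream of lysosomal and autophagy genes when lysosomes are stressed or nutrients are scarce. The C9orf72 protein has been tied to this pathway in cultured cells through the ULK complex and the GTPases RAB8A and RAB39B. A comparison of RNA levels does not measure that tie of proteins or the activity of the pathway. Neurons depend on autophagy along their axons, and lysosomal enzymes are abundant in microglia as well as in neurons.

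The E-box that TFEB recognises has the core CACGTG, and in lysosomal genes it often sits in TCACGTGA. Both read the same on either strand, and the longer motif contains the shorter. Promoters (250 bases before to 50 after a gene's start, RefSeq, GRCm38.p6) were available for 35 of the 42 genes. CACGTG was present for 10 of the 35 (28.6%), for 6 of 12 lysosomal proteins and for 4 of 18 autophagy machinery genes (22.2%). It was present in 7.15% of all 32851 promoters and for 8.09% of 27025 genes. TCACGTGA was present for 5 of the 35 genes (14.3%) and for 1.12% of all genes. These matches are descriptions of letters, not of binding. The 5 genes with TCACGTGA are shown because they hold 3 lysosomal enzymes and a lysosomal channel whose levels are described below, with the 8 letters in capitals and up to 20 bases on each side. Each line has a single copy in capitals, and the line of Ctsa also holds its other copy, in lower case.
Ctsd, chr7:142387899-142387946, minus strand: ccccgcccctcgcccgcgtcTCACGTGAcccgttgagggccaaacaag
Ctsa, chr2:164833740-164833787, plus strand: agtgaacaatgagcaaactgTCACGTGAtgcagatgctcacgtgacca
Gla, chrX:134601206-134601253, minus strand: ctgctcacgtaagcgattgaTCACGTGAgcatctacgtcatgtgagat
Gla, chrX:134601173-134601220, minus strand: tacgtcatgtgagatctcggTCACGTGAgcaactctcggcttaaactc
Mcoln1, chr8:3500453-3500500, plus strand: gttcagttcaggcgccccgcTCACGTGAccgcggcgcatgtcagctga
Atg3, chr16:45158737-45158784, plus strand: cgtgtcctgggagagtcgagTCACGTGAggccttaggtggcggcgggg
Counted from the start used for the promoter that holds it, the motif began 99 bases before in Ctsd, 46 in Mcoln1 and 72 in Atg3. It began 228 and 195 bases before in Gla, and 13 in Ctsa, with another copy just after the start. Another promoter listed for Ctsa, chr2:164832622-164832921, held no copy of CACGTG. Lamp1, the most abundant membrane protein gene of the set, had 4 copies of CACGTG, in capitals here.
Lamp1, chr8:13158911-13159210, plus strand: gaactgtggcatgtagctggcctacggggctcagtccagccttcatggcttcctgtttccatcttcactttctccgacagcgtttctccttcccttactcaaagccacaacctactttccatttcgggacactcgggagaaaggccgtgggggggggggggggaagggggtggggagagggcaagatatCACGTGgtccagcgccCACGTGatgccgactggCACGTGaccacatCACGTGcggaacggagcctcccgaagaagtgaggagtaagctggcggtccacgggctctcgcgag

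Each tissue carried its defining genes. Summed markers of cortical projection neurons were 568 to 942 RPKM in cortex and 29.9 to 35.8 RPKM in spinal cord. Summed spinal cord markers were 0.290 to 5.67 RPKM in cortex and 141 to 161 RPKM in spinal cord. Libraries held 9398450 to 14715900 alignments in cortex and 28479400 to 38811100 in spinal cord. Markers of choroid plexus were uneven in cortex, with sums of 25.01 to 35.11 RPKM in F112, 30.4 to 872 in F08 and 37.8 to 878 in NTg. The 3 libraries rich in Ttr were F08 mouse 6320 and NTg mice 6322 and 6326. Fits without these 3 therefore kept only mice 6323 and 6327 for NTg cortex. Mouse C9orf72, listed as 3110043O21Rik, averaged 10.1 ± 0.56 RPKM in F112 cortex (SD, n = 3), 6.62 ± 0.82 in F08 (n = 4) and 3.43 ± 0.55 in NTg (n = 4), and between 11.8 and 12.6 RPKM in the 3 genotypes of spinal cord. How reads were assigned to genes is not stated, and whether these values include reads of the human transgene was not tested.

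Levels spanned a wide range. Psap, the precursor of the saposins that help lysosomal enzymes reach their lipids, was the most abundant of the 42 genes in both tissues, with a mean of 366 RPKM in cortex and 547 RPKM in spinal cord. Gabarapl1, an ATG8 protein, was the second in both (201 and 232 RPKM). Ctsd, the aspartic protease cathepsin D, followed in cortex at 137 RPKM, and Lamp1, the main glycoprotein of the lysosomal membrane, in spinal cord at 226 RPKM. The lowest was Atg10, the E2-like enzyme of the ATG12 conjugation system, at 1.70 RPKM in cortex, and Atg14, the autophagy-specific partner of Beclin 1, at 4.51 RPKM in spinal cord. No gene lay near the filter of 0.5 RPKM.

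By role, the ATG8 family stood highest among the autophagy genes, with a median of 71.3 RPKM over its 5 members in cortex and 118 RPKM in spinal cord. The 7 conjugation genes that act on this family had medians of 6.37 and 12.7 RPKM. The ULK complex (5 genes) had medians of 14.1 and 12.9 RPKM, the lipid kinase complex (3 genes) of 7.09 and 8.28 RPKM, and the genes of membrane supply (3) of 18.9 and 20.7 RPKM. Lysosomal enzymes had medians of 18.6 and 26.6 RPKM. Between the tables the ratio of means, spinal cord over cortex, was largest for Rab7, the GTPase of late endosomes, at 4.21, then for Gabarapl2 at 3.80 and Atg3 at 3.40, and smallest for Atg16l1 at 0.739. The tables were scaled separately and the libraries were made for different sequencers (Ion Torrent for brain, Illumina for cord), so these ratios were not tested.

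**Figure D1:**
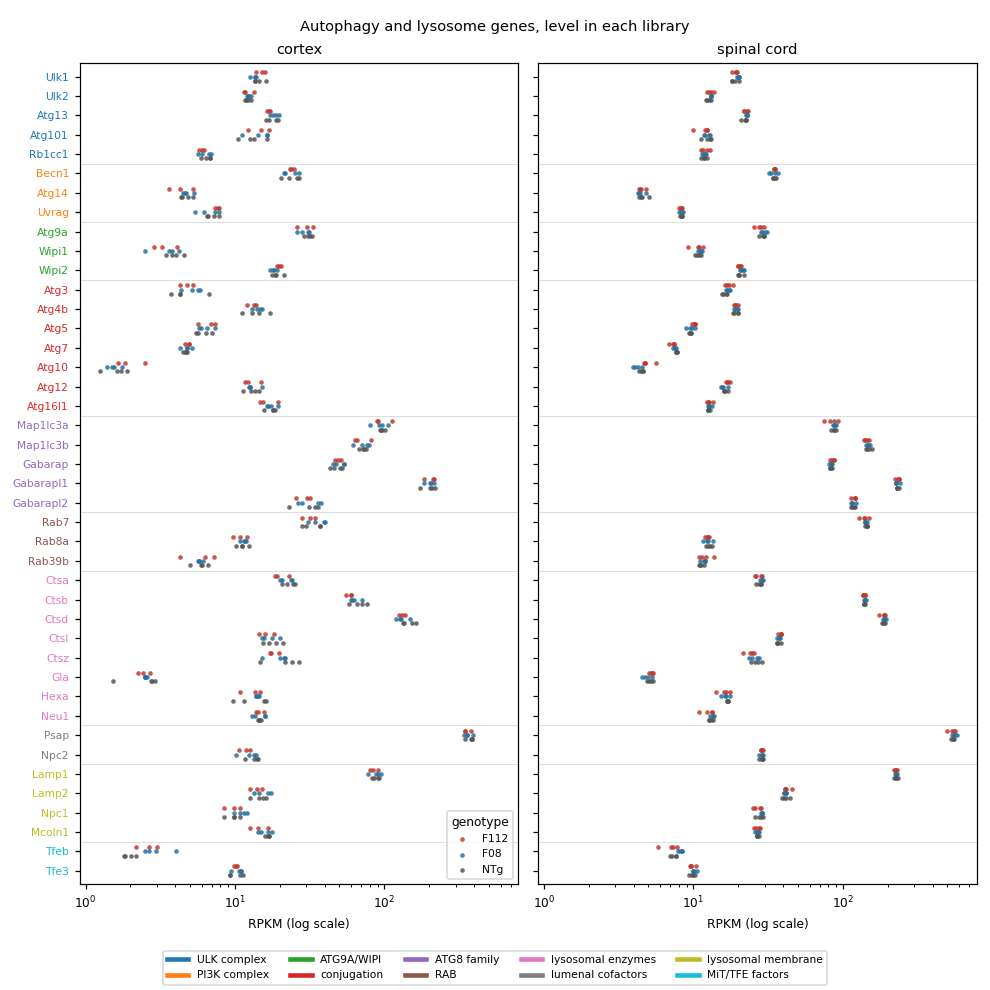
Level of each of the 42 genes in every library (RPKM, log axis), by tissue, with F112 in red, F08 in blue and NTg in grey, and gene names coloured by role. Psap and Gabarapl1 are the highest in both tissues, and the libraries of a gene lie closer together in spinal cord than in cortex.

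The spread between replicates was small. The median SD within a genotype, on the log2 scale, was 0.14 over the 42 genes and 0.20 over all genes in cortex, and 0.05 and 0.08 in spinal cord. The median coefficient of variation within a genotype was 9.98% in cortex and 3.73% in spinal cord. In cortex it was largest for Atg3, the E2-like enzyme that attaches ATG8 proteins to lipid (19.1%), then Tfeb and Ctsz (18.9% each), Atg101 (17.3%) and Atg10 (17.2%). It was smallest there for Atg7, the shared E1-like enzyme (4.84%), Psap (5.24%) and Ulk2 (5.26%). In spinal cord the largest were Atg101 (7.30%), Ctsz (7.27%), Tfeb (7.07%), Atg10 (6.83%) and Rab39b (6.54%), and the smallest Ctsb (1.29%), Gabarap (2.00%) and Ctsl (2.30%). Atg101, Ctsz, Tfeb and Atg10 were thus among the most variable 5 in both tissues.

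No gene of the set passed the test between genotypes. With limma's empirical Bayes test on log2(RPKM + 0.5) and Benjamini-Hochberg adjustment over all genes, 0 of 42 had an adjusted p under 0.05 in any of the 6 comparisons. Few other genes passed either. The share of all genes was 0.00721% for F112 against NTg in cortex, 0% for F08 against NTg and 0% for F112 against F08. In spinal cord 0.00723% passed for F112 against NTg, 0.00723% for F08 against NTg and 0.0217% for F112 against F08. The lowest adjusted p among the 42 genes was 0.393, for Atg10 in spinal cord between F112 and F08.

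At an unadjusted p under 0.05 the counts were 0 of 42 for F112 against NTg in cortex (1.97% of all genes), 1 for F08 against NTg (2.61%) and 0 for F112 against F08 (2.47%). In spinal cord they were 1 for F112 against NTg (7.11% of all genes), 2 for F08 against NTg (4.1%) and 4 for F112 against F08 (10.4%). These shares were near the background or below it.

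The size of difference that these data leave room for differed between the tissues. The median half-width of the 95% interval of a log2 fold change over the 42 genes was 0.24 for F112 against NTg and 0.22 for F08 against NTg in cortex, and 0.08 for each in spinal cord. For F112 against NTg the interval lay wholly within 1.5-fold either way for 40 genes in cortex and for 42 in spinal cord. It lay within 1.2-fold for 14 genes in cortex and for 41 in spinal cord. For F08 against NTg the counts within 1.2-fold were 16 in cortex and 41 in spinal cord. All fold changes here are on the log2(RPKM + 0.5) scale, which understates those of the lowest genes. In bulk tissue, fewer cells of a type and less RNA per cell cannot be told apart.

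**Figure D2:**
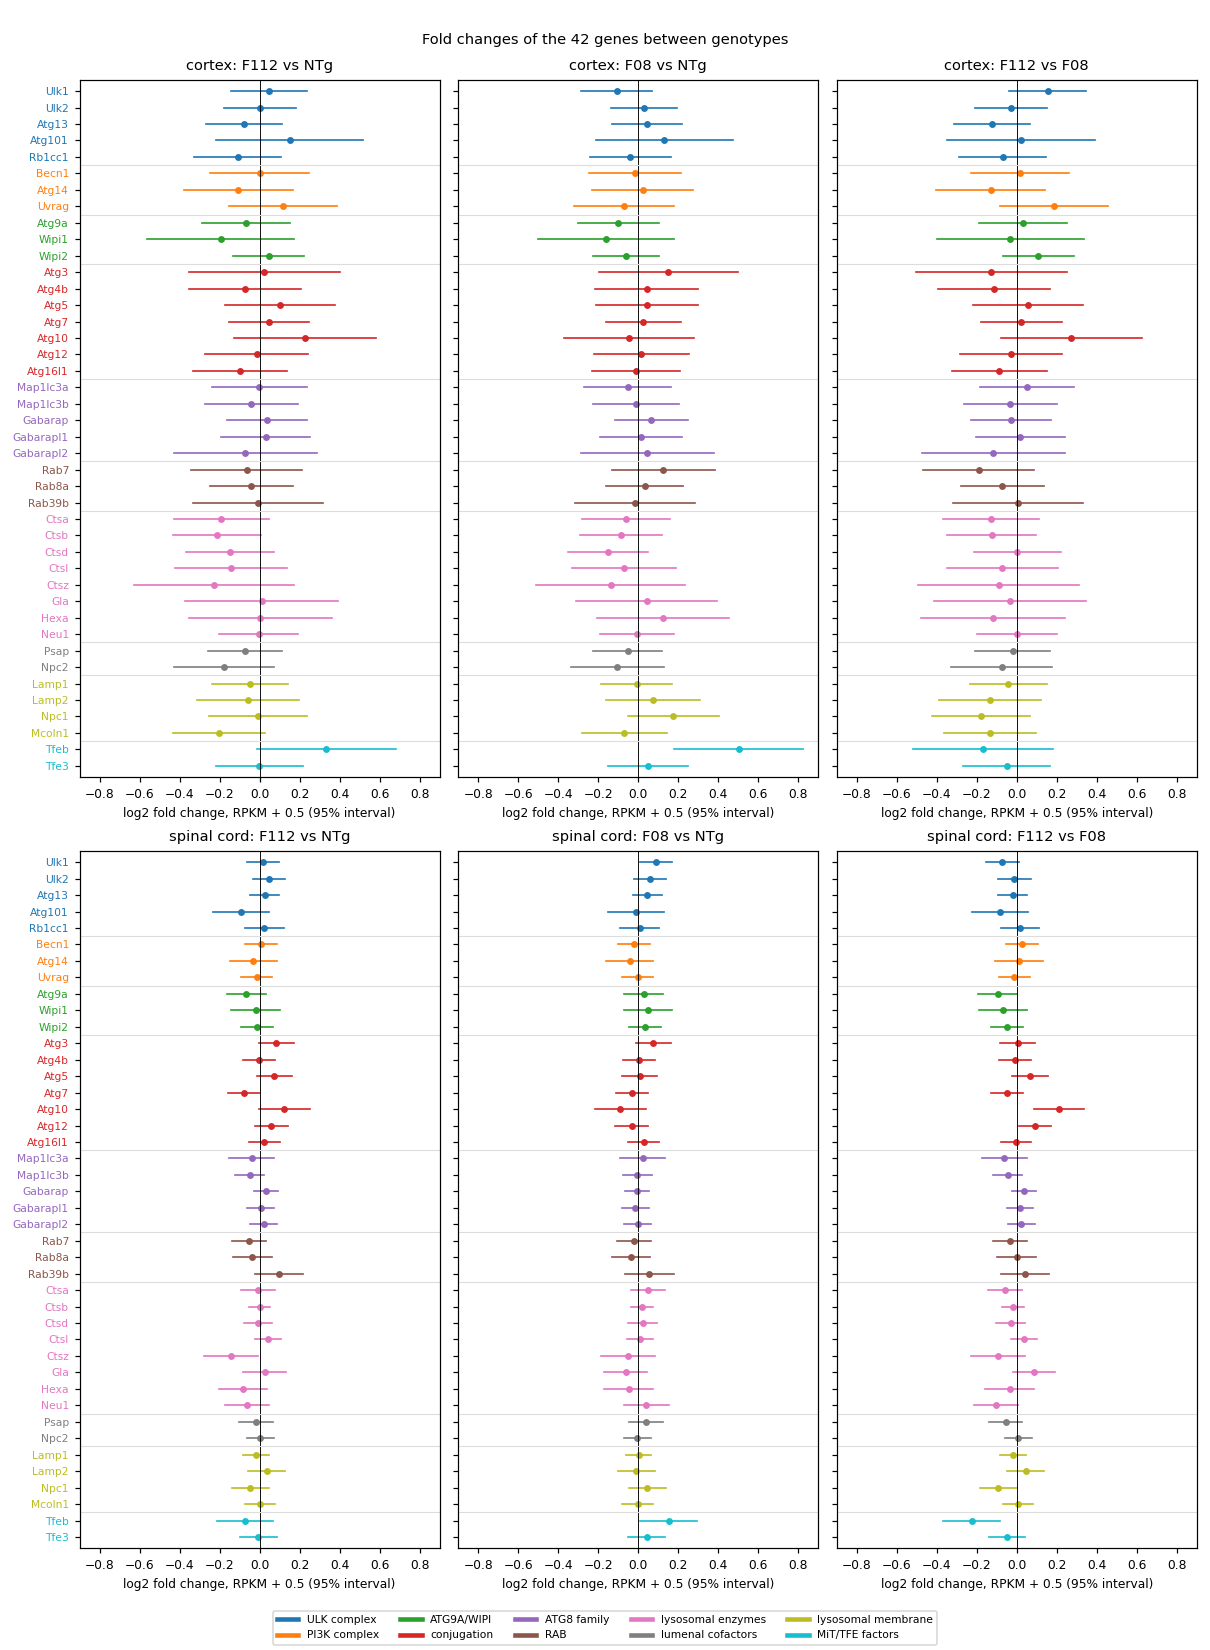
Log2 fold change of RPKM + 0.5 for each of the 42 genes (points) with its 95% limma interval (lines), for 3 comparisons in cortex (upper row) and spinal cord (lower row), coloured by role. In cortex the interval for Tfeb lies above 0 for F08 against NTg, most lysosomal enzymes lie left of 0 for F112 against NTg, and the spinal cord intervals are narrower throughout.

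Fold changes of the ULK complex were small. Ulk1, the kinase that starts autophagy, was at 16.0, 13.8 and 15.1 RPKM in F112 cortex, 13.5, 13.6, 13.8 and 12.6 RPKM in F08 cortex, and 16.1, 13.7, 14.5 and 13.6 RPKM in NTg cortex. All 3 groups overlapped there, with log2 fold changes of 0.15 (SE 0.087) for F112 against F08 and -0.11 (SE 0.081) for F08 against NTg. Without NTg mouse 6322 the second value was -0.06. In spinal cord Ulk1 was at 19.3, 19.4, 18.1 and 19.5 RPKM in F112, 19.66, 20.02, 20.22 and 20.33 RPKM in F08, and 18.9, 18.2, 18.2 and 20.1 RPKM in NTg.

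The 4 F08 cords lay above the 4 F112 cords, and 1 NTg cord lay within the F08 range. Ulk1 had a log2 fold change of 0.09 for F08 against NTg (adjusted p = 1.00), which was 0.03 with alignments as a covariate, and -0.07 for F112 against F08 (adjusted p = 0.523). Ulk2, its close relative, was at 13.1 RPKM on average in F08 cord and 12.5 in NTg cord without overlap, a log2 fold change of 0.06 (adjusted p = 1.00). Atg13, which links the kinase to the complex, was at 17.1, 16.4 and 17.0 RPKM in F112 cortex and 17.1, 18.1, 19.6 and 18.7 RPKM in F08 cortex. These groups did not overlap, by a margin smaller than the rounding of these values, and the log2 fold change was -0.12 (SE 0.087, adjusted p = 1.00).

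Among genes of nucleation and membrane supply, Uvrag, a Beclin 1 partner, had the third lowest p among genes above 0 for F112 against NTg in cortex, with a log2 fold change of 0.12 (SE 0.124, adjusted p = 1.00), and 0.19 (SE 0.124) for F112 against F08. Without F08 mouse 6318 the second value was 0.10. Atg9a, the lipid scramblase carried on the vesicles that seed the membrane, was at 27.5, 29.9, 25.5 and 28.1 RPKM in F112 cord and 30.1, 31.0, 28.5 and 28.9 RPKM in F08 cord. The groups overlapped, and the log2 fold change was -0.09 (SE 0.046, adjusted p = 0.486) and -0.06 without F112 mouse 6324. In cortex Atg9a had a log2 fold change of -0.10 (SE 0.093) for F08 against NTg, -0.05 without F08 mouse 6320 and 0.01 without the 3 Ttr-rich libraries.

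Among the conjugation genes Atg10 had the largest difference in spinal cord. Atg10 (GRCm38, chr13:90935356-91223968, minus strand) was at 4.76, 4.68, 5.64 and 4.76 RPKM in F112 cord, 4.05, 4.28, 3.95 and 4.55 RPKM in F08 cord, and 4.59, 4.35, 4.47 and 4.60 RPKM in NTg cord. The F112 cords lay above all others, while F08 and NTg overlapped. The log2 fold change was 0.21 for F112 against F08 (SE 0.059, adjusted p = 0.393) and 0.12 for F112 against NTg (SE 0.059, adjusted p = 0.699).

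F112 mouse 6324 had the highest Atg10 level in cord, and without it the differences were 0.16 and 0.07. In cortex Atg10 was at 2.49, 1.66 and 1.85 RPKM in F112, 1.55, 1.76, 1.51 and 1.39 RPKM in F08, and 1.74, 1.24, 1.64 and 1.89 RPKM in NTg. These groups overlapped, with log2 fold changes of 0.27 (SE 0.162) for F112 against F08 and 0.23 (SE 0.162) for F112 against NTg. The cortex values rested on mouse 6316, without which they were 0.14 and 0.09.

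Other conjugation genes differed by less. Atg5, the protein that ATG12 is joined to, was at 9.75, 10.2, 10.3 and 10.0 RPKM in F112 cord and 9.52, 9.70, 9.29 and 9.65 RPKM in NTg cord. Atg7 was at 7.45, 7.29, 6.85 and 7.42 RPKM in F112 cord and 7.73, 7.61, 7.63 and 7.76 RPKM in NTg cord. The groups did not overlap for either gene, higher in F112 for Atg5 and lower for Atg7, with log2 fold changes of 0.07 and -0.08 (adjusted p = 0.751 and 0.703). With alignments as a covariate these were 0.02 and -0.12.

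Atg3 had log2 fold changes of 0.08 for both F112 and F08 against NTg in cord, comparisons that share the NTg libraries. The F112 value was 0.05 without F112 mouse 6324. Atg12, the ubiquitin-like modifier itself, was at 16.8, 16.6, 17.6 and 17.0 RPKM in F112 cord and 17.1, 15.7, 15.4 and 15.6 RPKM in F08 cord, with a log2 fold change of 0.09 (adjusted p = 0.450). With Atg10, Atg5 and Atg7, 3 of the 42 genes did not overlap between F112 and NTg in cord, where 3.07% of all genes did not (0.976% higher, 2.1% lower). Tfeb and Ulk2 were the 2 for F08 against NTg, both higher, beside 4.09% of all genes (2.57% higher, 1.52% lower). For F112 against F08 they were Atg10, which was higher, and Tfeb and Ulk1, which were lower, beside 5.54% (1.36% higher, 4.18% lower). In cortex 0 of the 42 did so for F112 against NTg, beside 3.05% (1.19% higher, 1.86% lower). Tfeb, higher, was the 1 for F08 against NTg, beside 1.69% (0.822% higher, 0.873% lower). Atg13, lower, was the 1 for F112 against F08, beside 3.57% (1.52% higher, 2.05% lower).

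The ATG8 family, whose lipid-bound members mark the autophagosome, showed log2 fold changes between -0.07 and 0.04 for F112 against NTg in cortex and between -0.05 and 0.03 in spinal cord, with no p under 0.05. Gabarapl1, the most abundant, was at 216, 213 and 183 RPKM in F112 cortex, 204, 214, 185 and 202 RPKM in F08 cortex, and 172, 201, 218 and 208 RPKM in NTg cortex. The Rab members also overlapped between genotypes. Rab7 was at 28.3, 31.9 and 34.2 RPKM in F112 cortex, 34.4, 30.8, 39.3 and 39.8 RPKM in F08 cortex, and 29.8, 36.9, 28.3 and 37.3 RPKM in NTg cortex. The log2 fold change was -0.19 (SE 0.127) for F112 against F08, and -0.12 without F112 mouse 6316. Rab8a and Rab39b, the GTPases that C9orf72 has been tied to, had log2 fold changes within 0.05 of 0 against NTg in cortex for both transgenes. In spinal cord Rab39b had 0.10 for F112 against NTg (SE 0.056, adjusted p = 0.751) and 0.06 for F08 against NTg, and Rab8a had -0.04 for each.

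Taken over the 23 genes, the autophagy machinery was centred on 0. In cortex the median log2 fold change was 0.00 for F112 against NTg (12 of 23 above 0), 0.01 for F08 against NTg (12 of 23) and -0.03 for F112 against F08 (11 of 23). The medians of all genes tested were -0.02, 0.00 and -0.02. The share of all genes above 0 was 43.6%, 49.5% and 43.7% in these comparisons. In spinal cord the autophagy medians were 0.01, 0.00 and -0.01 (13, 12 and 10 of 23 above 0), beside -0.01, 0.01 and -0.02 for all genes, of which 43.7%, 55.6% and 41.2% were above 0.

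The lysosomal enzymes lay lower in F112 cortex than in NTg cortex without any passing the test. Their median log2 fold change was -0.15, with 6 of 8 below 0, and that of the 14 lysosomal proteins -0.11, with 12 of 14 below 0. Of all genes tested, 43.6% were above 0 in this comparison. F08 cortex also lay lower than NTg, with an enzyme median of -0.07, and the enzyme median for F112 against F08 was -0.08. For F08 against NTg, Ctsa (-0.06), Ctsb (-0.09), Ctsd (-0.15), Ctsl (-0.07), Ctsz (-0.14) and Neu1 (-0.01) were below 0. Gla (0.04) and Hexa (0.12) were above it. The log2 fold change of Ctsd was -0.15 for F112 against NTg as well. Ctsb, the cysteine protease cathepsin B (GRCm38, chr14:63122462-63145923, plus strand), was at 59.7, 55.1 and 59.7 RPKM in F112, 61.0, 59.6, 70.8 and 62.9 RPKM in F08, and 57.8, 70.6, 65.8 and 77.0 RPKM in NTg cortex. The F112 cortices lay below 3 of the 4 NTg cortices, and the log2 fold change was -0.21 (SE 0.102, adjusted p = 1.00) and -0.34 without the Ttr-rich libraries.

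Mcoln1, the calcium channel TRPML1 of the lysosomal membrane, was at 16.5, 12.5 and 14.2 RPKM in F112, 14.9, 16.6, 14.2 and 17.7 RPKM in F08, and 16.7, 16.0, 16.8 and 16.9 RPKM in NTg cortex. The log2 fold change was -0.20 (SE 0.105, adjusted p = 1.00) for F112 against NTg, and without F112 mouse 6317 it was -0.11. Ctsa, which protects neuraminidase and galactosidase in the lysosome, had a log2 fold change of -0.19 (SE 0.109, adjusted p = 1.00), which was -0.11 with alignments as a covariate and -0.30 without the Ttr-rich libraries. Ctsd was at 138, 124 and 132 RPKM in F112, 130, 119, 148 and 128 RPKM in F08, and 135, 162, 133 and 153 RPKM in NTg cortex, with a log2 fold change of -0.15 (SE 0.092, adjusted p = 1.00) for F08 against NTg. Without NTg mouse 6323 it was -0.10, and without the 3 Ttr-rich libraries -0.33.

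Single libraries weighed on the enzyme median for F112 against NTg, which was -0.08 without NTg mouse 6323 and -0.20 without NTg mouse 6326. The medians of all genes were then 0.01 and -0.03, beside -0.02 with all libraries. With the number of alignments as a covariate the enzyme median was -0.08 and that of all genes 0.02. The NTg libraries 6323 and 6327 had enzyme medians of 0.21 each above the gene means and were among the 5 cortex libraries with the most alignments (13115500 to 14715900). The libraries were split by depth after these values were seen. Since both of these NTg libraries fell in the deeper class, the split cannot tell depth from these libraries. Within those 5 the enzyme median for F112 against NTg was -0.19 (0 of 8 above 0), from 1 F112 library and the 2 NTg libraries named, and within the other 6 (9398450 to 11512300 alignments) it was -0.01 (4 of 8 above 0). For F08 against NTg the pooled median was -0.07, the values within these classes were -0.15 and -0.03, and without the Ttr-rich libraries it was -0.24.

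Microglia, which are rich in these enzymes, showed summed marker levels of 169 to 178 RPKM in F112 cortex, 159 to 186 in F08 and 160 to 192 in NTg, over 12 markers of which 7 were below 0 for F112 against NTg. In this comparison choroid plexus markers were below 0 for 10 of 10 (median -1.08), blood markers for 7 of 7 (median -0.47, summed 229 to 414 RPKM in F112 and 330 to 655 in NTg) and oligodendrocyte markers for 6 of 8 (median -0.06). Astrocyte markers were above 0 for 7 of 8 (median 0.04, summed 598 to 647 RPKM in F112 and 564 to 626 in NTg). Without the 3 libraries rich in Ttr the enzyme median was -0.28, where that of all genes was -0.08. That fit kept only NTg mice 6323 and 6327, whose enzyme medians of 0.21 were the highest in cortex. The part of other cells in the enzyme difference was not tested. Set against the autophagy machinery of the same library, the enzyme median was 0.07 lower on average in F112 cortex (range -0.14 to -0.02, n = 3), 0.02 lower in F08 (-0.12 to 0.03, n = 4) and 0.08 higher in NTg (-0.07 to 0.22, n = 4). The 3 ranges overlapped.

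**Figure D3:**
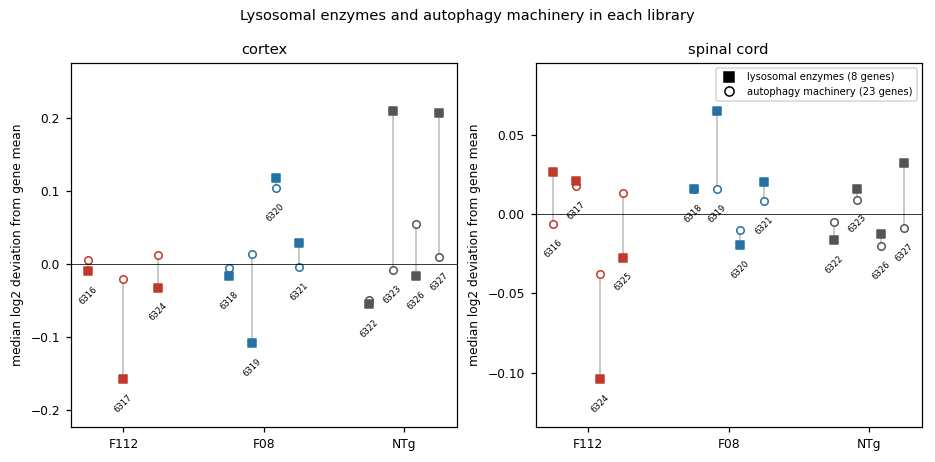
Median log2 deviation from each gene's mean over the tissue's libraries, for the 8 lysosomal enzymes (filled squares) and the 23 autophagy genes (open circles) of each library, labelled by mouse and grouped as F112, F08 and NTg. In cortex the squares of NTg mice 6323 and 6327 are at 0.21 while their circles are near 0, and in spinal cord F112 mouse 6324 is the lowest for both lists.

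In spinal cord the enzyme medians were near 0. They were -0.01 for F112 against NTg, 0.01 for F08 against NTg and -0.03 for F112 against F08. Ctsb was at 140, 141, 137 and 136 RPKM in F112 cord, 142, 140, 138 and 142 RPKM in F08 cord, and 138, 140, 139 and 138 RPKM in NTg cord. Ctsz, cathepsin Z, had the lowest p of the enzymes for F112 against NTg. It was at 21.4 RPKM in F112 mouse 6324 and at up to 25.4 RPKM in the other F112 cords, 27.5, 26.7, 23.5 and 24.6 RPKM in F08, and 25.8, 28.8, 24.2 and 27.2 RPKM in NTg cord.

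The F112 and NTg cords overlapped for Ctsz, and the log2 fold change was -0.15 (SE 0.063, adjusted p = 0.680) and -0.09 without F112 mouse 6324. Microglial markers summed to 139 to 159 RPKM in F112 cord, 156 to 172 in F08 and 155 to 165 in NTg, and 10 of 12 were below 0 for F112 against NTg. Mouse 6324 had the lowest microglial level as well, and the part of these cells in the Ctsz value was not tested. Hexa, the alpha subunit of beta-hexosaminidase, had a log2 fold change of -0.08 for F112 against NTg in cord, and -0.02 without mouse 6324. Gla, alpha-galactosidase, had one of 0.09 for F112 against F08 and -0.06 for F08 against NTg, which were 0.05 and -0.03 without F08 mouse 6318.

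Npc1, which moves cholesterol out of the lysosome, was at 9.93, 8.45 and 10.8 RPKM in F112, 11.5, 9.93, 12.0 and 10.8 RPKM in F08, and 8.49, 10.8, 9.85 and 9.86 RPKM in NTg cortex. In spinal cord it was at 26.0, 25.2, 28.0 and 28.2 RPKM in F112 and 28.9, 28.2, 28.7 and 28.8 RPKM in F08. Npc1 was thus lower on average in F112 than in F08 in both tissues, by 0.18 in cortex (adjusted p = 1.00) and 0.09 in spinal cord (adjusted p = 0.479) on the log2 scale. Without F112 mouse 6317 the cortex difference was -0.09. Rmc1 overlaps 4.52% of its exon bases on the other strand.

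For F08, Tfeb was the only gene of the set that did not overlap NTg in both tissues in the same direction. For F112 no gene of the set did so. Of all genes, 0.822% lay higher in F08 than in NTg without overlap in cortex and 2.57% in spinal cord. The share that did so in both tissues at once was not computed. Tfeb (GRCm38, chr17:47737030-47792419, plus strand) was at 2.18, 3.02 and 2.67 RPKM in F112 cortex, 2.66, 2.50, 4.01 and 2.97 RPKM in F08 cortex, and 1.82, 2.01, 1.84 and 2.19 RPKM in NTg cortex. All 4 F08 cortices were above all 4 NTg cortices, and 2 of 3 F112 cortices were. The log2 fold change was 0.50 for F08 against NTg (SE 0.148, adjusted p = 1.00), a ratio of means of 1.54, and 0.33 for F112 against NTg (SE 0.160, adjusted p = 1.00).

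In spinal cord Tfeb was at 7.03, 7.72, 5.81 and 7.34 RPKM in F112, 8.38, 8.40, 7.90 and 8.12 RPKM in F08, and 6.94, 7.19, 7.61 and 7.60 RPKM in NTg. The F08 cords lay above all others, while F112 and NTg overlapped. The log2 fold change was 0.15 for F08 against NTg (SE 0.066, adjusted p = 1.00) and -0.23 for F112 against F08 (SE 0.066, adjusted p = 0.406). Without F112 mouse 6324 this last value was -0.15.

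Tfeb was singled out by this lack of overlap, so its values are a description. Within the deeper and the shallower cortex libraries the F08 difference of Tfeb was 0.61 and 0.40, and that of F112 0.29 and 0.40. The deeper F112 value came from 1 F112 library and 2 NTg libraries. In any part of the cortex libraries the F08 difference could only be above 0, since all F08 cortices lay above all NTg cortices. Its sign therefore says nothing about depth. Without the 3 libraries rich in Ttr the F08 difference was 0.30.

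Oligodendrocyte markers were also uneven in cortex. All 8 were above 0 for F08 against NTg (median 0.47), with summed levels of 1099 to 1732 RPKM in F08 and 631 to 1247 in NTg. In F112, where Tfeb averaged 2.62 RPKM against 1.97 in NTg, 6 of 8 were below 0 and the sums were 806 to 1226 RPKM. In spinal cord the sums were 7651 to 7952 RPKM in F08 and 7141 to 8176 in NTg. The part of oligodendrocytes in the Tfeb values was not tested.

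Tfe3, the relative of TFEB that binds the same sequences, was at 9.40 to 11.0 RPKM in F08 cortex and 9.21 to 11.4 RPKM in NTg cortex, with a log2 fold change of 0.05. The 5 genes with TCACGTGA in their promoters had a median log2 fold change of -0.06 for F08 against NTg in cortex (2 of 5 above 0) and 0.02 in spinal cord (3 of 5). The 10 genes with CACGTG had medians of 0.01 and 0.00 in these comparisons, beside 0.01 and 0.00 for the 25 without. For F112 against NTg in cortex they were -0.08 and -0.01.

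**Figure D4:**
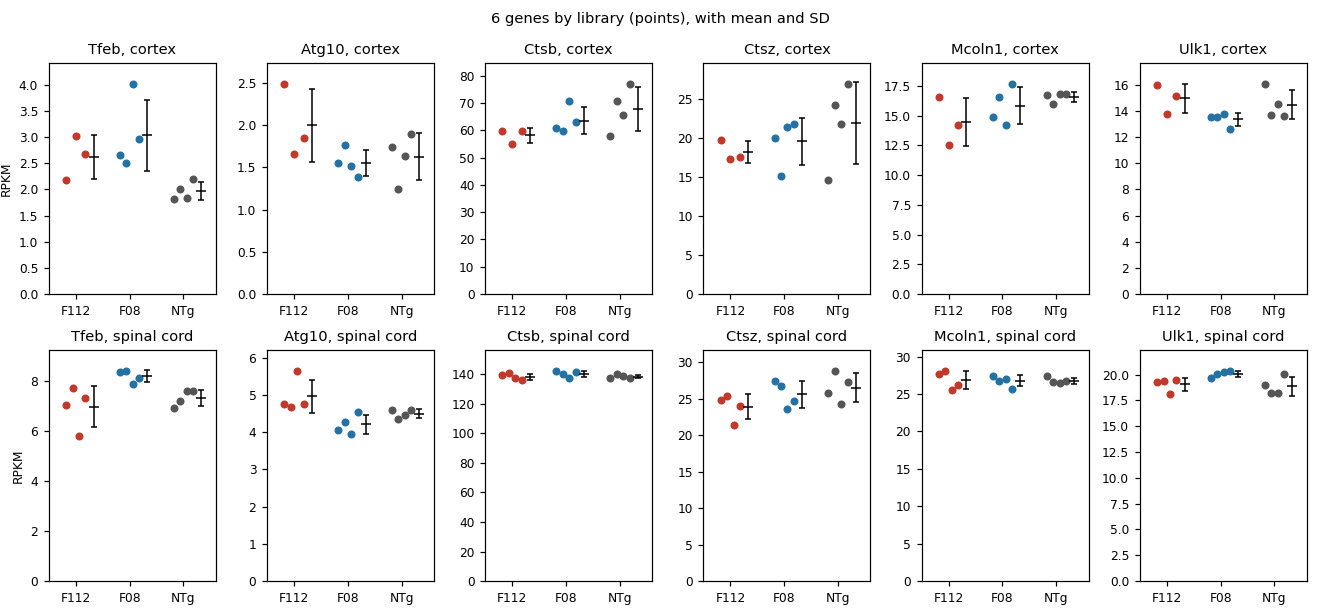
RPKM of Tfeb, Atg10, Ctsb, Ctsz, Mcoln1 and Ulk1 in each library (points) with the mean and SD of the group (black), in cortex (upper row) and spinal cord (lower row), in the order F112, F08 and NTg. The F08 points of Tfeb lie above all NTg points in both tissues, and the lowest F112 point of Atg10 in spinal cord, 4.68, lies just above the highest NTg point, 4.60.

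To compare the tissues, each genotype difference in spinal cord was subtracted from that in cortex, with all 23 libraries and the 13078 genes that passed the filter in both. With limma 0 of 42 genes passed for F112 against NTg (0.00765% of all genes), F08 against NTg (0.00765%) or F112 against F08 (0%). The counts at an unadjusted p under 0.05 were 2 (3.58% of all genes), 2 (2.93%) and 1 (4%). For F112 against NTg they were Tfeb, with 0.41 (SE 0.161), and Ctsb, with -0.21 (SE 0.097). For F08 against NTg they were Ulk1, with -0.20 (SE 0.082), and Tfeb, with 0.35 (SE 0.155), and for F112 against F08 Ulk1, with 0.23 (SE 0.085). With the mouse as replicate block over the 11 mice with both tissues, the counts were 1 (3.27% of all genes), 1 (2.65%) and 1 (3.21%), and Ctsb and the F08 value of Ulk1 were no longer among them.

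The next in each direction were Atg7 (0.13) and Mcoln1 (-0.20) for F112 against NTg, Npc1 (0.13) and Ctsd (-0.17) for F08 against NTg, and Wipi2 (0.16), Lamp2 (-0.18) and Mcoln1 (-0.14) for F112 against F08. Single cortex libraries weighed on several of these. Mcoln1 was -0.11 for F112 against NTg and -0.04 for F112 against F08 without F112 mouse 6317, Lamp2 was -0.11 without F112 mouse 6316, Npc1 was 0.07 without NTg mouse 6322, and Tfeb was 0.23 for F08 against NTg without F08 mouse 6320. In each of these the larger of the differences that were subtracted was the one measured in cortex, where the errors were larger, except for Atg7. The adjusted p was 1.00 for each of these and for Tfeb, Ctsb and Ulk1.

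Neither the labels nor the tables say whether counting used strand, so reads of genes that overlap on opposite strands cannot be told apart. In GENCODE M21 the exons of 17 of the 42 genes overlap those of another gene. The share of exon bases was over 20% for 5, namely Becn1 (43.9%), Ctsd (34.4%), Atg9a (31.8%), Gabarapl1 (28.3%) and Ctsl (26.8%). Of these overlaps, those of Ctsd with Gm49369 and of Atg9a with Gm29253 are on the same strand. There strand would not separate the reads. Tfeb, Atg10 and Mcoln1 were not among the 17. Rab7 has a processed copy in the genome, Rab7-ps1, so that its level is uncertain where reads were shared.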

How the data were processed

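RNA sequencing values were deposited by the authors as 1 table per tissue, in RPKM per gene and library, with the number of alignments of each library. The submitters' processing notes name TopHat2 2.0.8b, Partek, mm9 and mm10. Which of them served which table, and how reads were assigned to genes, is not stated there. RPKM is not a count, so no count model was used. Libraries of a group came from different mice.

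Each tissue was fitted apart with limma 3.58.1 in R 4.3.3, on log2(RPKM + 0.5) with a mean-variance trend, the 3 genotypes in 1 fit, a filter on the mean level (0.5 RPKM or more), and Benjamini-Hochberg adjustment over all genes kept (threshold 0.05). Intervals are limma's 95% intervals. The fit was tested on simulated data with added shifts larger than any fold change of the members. That test does not show whether differences as small as those reported here would be found. Per comparison, the genes named were those passing and the 3 with the lowest p in each direction (2 for tissue differences). The rule added the 5 most and 3 least variable genes per tissue, any gene near the filter, and genes that did not overlap NTg in both tissues. Other members are named to complete a role. The members and lists were chosen with earlier results of these data known. Pathway genes are the 2 with the lowest p per list and comparison, given in part. The mouse number, shared by cortex and spinal cord libraries of the same animal, pairs the tissues, and 11 mice had both. Alternatives were pseudocounts of 0.1 and 1, scaling by median of ratios or by quantiles, a filter at 5 RPKM or none, a fit of the compared groups alone, array weights, Xist or alignments as a covariate, leaving out libraries, and the 14 lysosomal proteins in place of the enzymes. Splitting the cortex libraries by depth was chosen after seeing the data. Positions came from GENCODE M21 (GRCm38) and promoters from RefSeq (GRCm38.p6), matched by symbol.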

Additional observations from a re-analysis of the deposited data

Results flagged for a closer look

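Of 210 combinations of a gene and a group of 4 libraries, 18 held a library far from the other 3, by a test that flags about 1 in 20 groups by chance. In spinal cord, 6 were in F112 mouse 6324. Its level was lower for Ulk1 (18.1 RPKM, others 19.3 to 19.5), Atg101 (9.92, others 12.0 to 12.4), Gabarapl1 (223, others 236 to 238) and Ctsd (175, others 190 to 191). It was higher for Atg10 (5.64, others 4.68 to 4.76) and Lamp2 (46.0, others 40.9 to 41.7). The same library was the lowest of the 12 cords in the median of autophagy genes (-0.04), lysosomal enzymes (-0.10) and microglial markers (-0.18), each as a log2 deviation from the gene means. It was also the lowest of the 12 in the median of all genes tested (-0.02), so a low median was not particular to these lists. NTg mouse 6326 stood apart for Atg13 (20.9 RPKM, others 22.3 to 22.5), Atg9a (27.4, others 29.4 to 29.7) and Gabarapl1 (237, others 230 to 231), and NTg mouse 6322 for Npc2 (27.4, others 28.9 to 29.2). F08 mouse 6321 stood apart for Gabarapl1 (240 RPKM, others 226 to 228) and Rab7 (146, others 141).

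In cortex, F08 mouse 6321 stood apart for Atg12 (15.2 RPKM, others 12.4 to 12.6), F08 mouse 6320 for Rab39b (6.08, others 5.67 to 5.72) and F08 mouse 6318 for Gla (2.58, others 2.49 to 2.50). NTg mouse 6326 stood apart for Gla (1.52 RPKM, others 2.74 to 2.94), NTg mouse 6322 for Psap (348, others 382 to 388) and NTg mouse 6323 for Mcoln1 (16.0, others 16.7 to 16.8). The 3 F112 cortex libraries were too few for this test.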

How the results depend on the processing

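The count of the 42 genes called was 0 in each of 210 refits, each library left out in turn included. With the animal as replicate block (11 mice with both tissues) it was 0 in all 3 tissue differences, and no adjusted call of these 42 genes changed. Within a tissue no pairing exists, since the genotypes are different mice. Cortex libraries had fewer alignments and wider intervals than spinal cord libraries, so smaller differences were not detectable there. Without the 3 cortex libraries rich in Ttr the enzyme median was -0.281 for F112 against NTg and -0.241 for F08 against NTg. The median of all genes was then -0.08 and -0.07. For F08 against NTg Rab7 was -0.0921 and Atg9a 0.0128, both with the sign turned. This fit dropped NTg mice 6322 and 6326, with Rab7 at 29.8 and 28.3 RPKM and Atg9a at 32.8 and 32.0. It kept NTg mice 6323 and 6327, with Rab7 at 36.9 and 37.3 RPKM and Atg9a at 29.0 and 30.7. F08 mouse 6320, also dropped, was at 39.3 and 25.9 RPKM. The turned signs come from which libraries remain, and why the libraries differ was not tested. With quantile scaling the autophagy median in spinal cord was 0.0259 for F112 against NTg and 0.0187 for F112 against F08 (0.00641 and -0.00803 as deposited). The median of all genes also rose, from -0.0099 to 0.0046 and from -0.0160 to 0.0043. Any part particular to the autophagy genes was not tested. With alignments as a covariate the cortex enzyme median was -0.0783 for F112 against NTg and -0.0264 for F112 against F08. The medians of all genes were then 0.02 and 0.01, where both were -0.02 without the covariate. Over the libraries left out in turn, the cortex enzyme median ranged from -0.20 (without NTg mouse 6326) to -0.08 (without NTg mouse 6323) for F112 against NTg, and from -0.12 (without F08 mouse 6320) to -0.02 (without NTg mouse 6323) for F08 against NTg. Of 1097 refits of the named genes 1095 kept their direction and stayed on the same side of the threshold. Leaving out a library of the third genotype, or fitting the compared groups alone, leaves a fold change as it was, so those refits could not turn. The genes were also named for their low p, and none was near the threshold, so this count is a weak check.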

Other observations

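Other genes of the pathway, from lists that did not include the 42, were also tested, and 0 of 125 passed in any comparison with limma's adjusted p. In F112 cortex against NTg, 27 of 38 other autophagy genes and 35 of 48 other lysosomal genes were below 0 (medians -0.04 and -0.04, beside -0.02 for all genes), while 10 of 18 subunits of the proton pump and 11 of 21 genes of the lysosomal mTORC1 pathway were above 0. Naglu, which removes N-acetylglucosamine from heparan sulfate, averaged 4.16 ± 0.35 RPKM in the 3 F112 cortices and 3.10 ± 0.43 RPKM in the 4 NTg cortices without overlap, a log2 fold change of 0.38 (adjusted p = 1.00). Slc17a5, the sialic acid exporter of the lysosome, averaged 3.89 ± 0.44 and 3.11 ± 0.10 RPKM in these groups, also without overlap. They were the 2 of 48 other lysosomal genes that lay higher without overlap, beside 1.19% of all genes. Nrbf2, a subunit of the Beclin 1 complex, averaged 6.88 ± 0.89 RPKM in F112 cortex and 5.52 ± 0.30 in F08 cortex without overlap, as 1 of 38 other autophagy genes did, beside 1.52% of all genes higher (log2 fold change 0.29, adjusted p = 1.00).

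In spinal cord the lowest p in these lists were between F112 and F08. Ctsf, cathepsin F, averaged 25.4 ± 0.81 RPKM in F112 and 27.6 ± 0.57 in F08 (n = 4 each), a log2 fold change of -0.12 (adjusted p = 0.393). Man2b1, lysosomal alpha-mannosidase, averaged 9.71 ± 0.50 and 10.7 ± 0.25 RPKM, Calcoco1 19.2 ± 0.58 and 20.6 ± 0.15 RPKM, and Atg16l2 4.34 ± 0.22 and 4.86 ± 0.20 RPKM. F112 and F08 cords did not overlap for any of these 4 genes, which were taken for their low p. Of all other autophagy genes 3 of 38 and of all other lysosomal genes 3 of 48 lay lower without overlap, beside 4.18% of all genes. Of the other lysosomal genes 29 of 48 were below 0 in this comparison and of the other autophagy genes 25 of 38, beside a background of 41.2% of all genes above 0. Microglial markers were below 0 for 11 of 12 (median -0.12), and their part in these values was not tested.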
